A study of Mus musculus with 9 samples.

Results

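A set of 9 genes used to recognise resting microglia was followed across the cells of mouse brain vessels: Cx3cr1, P2ry12, P2ry13, Tmem119, Csf1r, Siglech, Sall1, Gpr34 and Olfml3. They were chosen by name as homeostatic genes of microglia, by no threshold on their level, though with earlier results of these data known, and all 9 were among the 46517 gene rows of the table. Vascular fragments of adult mouse brain were broken up mechanically and with enzymes, single cells were sorted into 384-well plates, and full-length cDNA was sequenced by Smart-seq2. The 1235 cells carried 9 type labels, and the 137 cells labelled MG were set beside 787 capilEC, 116 aEC, 54 PC, 45 vEC, 41 aSMC, 29 vSMC, 17 CP-EC and 9 FB cells. Strain, genotype, sex and number of animals are not stated for any label, no treatment is named, and the labels are not spelled out. Each label was deposited as 1 sample, so no test between types was possible. Intervals below are exact 95% intervals that cover counting error only, since reads copied by PCR and carrying no molecular identifier can stem from 1 molecule.

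Microglia are the resident macrophages of the brain. In the undisturbed brain they depend on the receptor Csf1r and its ligands for survival, sense fractalkine from other cells through Cx3cr1, and steer their processes towards ADP through P2ry12. TGF-beta signalling and the transcription factors PU.1 and Sall1 maintain this state, and the genes are known to fall when microglia are activated or taken out of the brain.

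The label MG matched microglia on other genes too. The 12 microglia markers outside the 9 genes summed to 31887 CPM (counts per 1000000 reads of the type) in MG and to 174 to 870 CPM in the other types, and 11 of the 12 stood at least 4-fold above every other type with a read in most MG cells. Itgam was the exception, at 257 CPM in MG with a read in 47.4% of its cells. The size rule that these 11 met, given in full below, was met by 1.08% of the 15494 genes with over 5 CPM in any type. Markers of macrophages at the brain's borders summed to 599 CPM in MG and those of monocytes and neutrophils to 133 CPM. Most of the border sum was Stab1, at 454 CPM in MG, which was at 496 CPM in CP-EC and 188 CPM in capilEC. None of the sources used here says how the labels were assigned, so the level of any of these genes in MG is not independent evidence for the label. The median cell held 232674 reads in MG and 192941 in capilEC, and no cell had counts identical to another.

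Motifs of microglial regulators were found upstream of P2ry12, P2ry13, Cx3cr1 and Siglech and in a Sall1 promoter. The sequences of all of these but Sall1 are shown. They are the 250 bases before the gene's start, on the gene's strand, from RefSeq in build GRCm38.p6: chr3:59262986-59263235 (minus strand), chr3:59210883-59211132 (minus strand), chr9:120068297-120068546 (minus strand) and chr7:55767934-55768183 (plus strand). Capitals mark the core of PU.1 sites (GGAAGT), the RUNX motif (TGTGGT) and the MEF2 motif, each on either strand, so that a motif on the other strand shows as its reverse complement.
P2ry12: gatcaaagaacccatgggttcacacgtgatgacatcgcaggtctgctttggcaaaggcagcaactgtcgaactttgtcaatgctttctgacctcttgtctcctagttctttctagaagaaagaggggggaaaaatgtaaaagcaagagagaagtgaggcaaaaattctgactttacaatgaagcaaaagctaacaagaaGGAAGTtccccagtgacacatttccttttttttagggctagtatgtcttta
P2ry13: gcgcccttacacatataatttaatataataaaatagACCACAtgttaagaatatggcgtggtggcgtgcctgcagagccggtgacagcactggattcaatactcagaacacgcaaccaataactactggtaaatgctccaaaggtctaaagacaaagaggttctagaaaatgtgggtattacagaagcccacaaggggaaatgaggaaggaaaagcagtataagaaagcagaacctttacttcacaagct
Cx3cr1: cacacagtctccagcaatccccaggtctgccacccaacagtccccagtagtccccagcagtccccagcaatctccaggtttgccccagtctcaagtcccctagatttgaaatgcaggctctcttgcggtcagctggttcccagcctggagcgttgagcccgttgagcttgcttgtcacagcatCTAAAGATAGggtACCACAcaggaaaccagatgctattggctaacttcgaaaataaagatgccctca
Siglech: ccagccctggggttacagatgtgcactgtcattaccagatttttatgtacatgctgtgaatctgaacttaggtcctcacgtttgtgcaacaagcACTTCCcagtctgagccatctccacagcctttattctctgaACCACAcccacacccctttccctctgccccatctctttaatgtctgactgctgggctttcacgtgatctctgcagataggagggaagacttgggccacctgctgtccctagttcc

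6 of the 9 genes, with 8 promoters, were matched in the promoter table of 32851 entries, which runs from 250 bases before to 50 bases after the start. GGAAGT on either strand was present in 3 of the 8: in P2ry12 with its first base at -51 from the start, in Siglech at -156 and in 1 of the 3 Sall1 promoters at -180. It was present in 23.8% of all promoters of that length. TGTGGT was also present in 3 of the 8, in P2ry13 at -214, Siglech at -115 and Cx3cr1 at -54, against 16.8% of all promoters. The MEF2 motif was found once, in Cx3cr1 at -67, where it lies next to the RUNX motif, against 3.69% of all. The longer PU.1 form GAGGAAGT, which contains GGAAGT, and the combined ETS and IRF motif were in none of the 8 (3.20% and 2.72% of all). The AP-1 motif TGANTCA was in none of them, against 7.81% of all promoters. The TATA box, searched as TATAAA, was in none either, against 13.6%. Sall1 also differed in base makeup, with 18, 27 and 39 CpG in its 3 promoters against 2 to 8 in the other 5 and a median of 7 over all promoters. A match is a string of letters, not a bound site.

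8 of the 9 genes were at least 4-fold above every other type in MG, with at least 50 CPM and a read in at least 50% of MG cells. The same size rule was met by 1.08% of the 15494 genes with over 5 CPM in any type. Against capilEC alone, the largest group, all 9 met it, by 5.90 (Sall1) to 7.71 (P2ry12) on the log2(CPM + 5) scale, where 2.31% of 12320 genes did. Olfml3 missed the first rule because of FB, with a log2 difference of 1.02. Per kilobase of the longest coding transcript, the order of the MG levels was P2ry12 at 1549 CPM, Cx3cr1 1233, Tmem119 1146, Siglech 1058, Csf1r 987, Gpr34 875, P2ry13 701, Olfml3 525 and Sall1 90.8. This order depends on the transcript chosen for each gene.

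**Figure D1:**
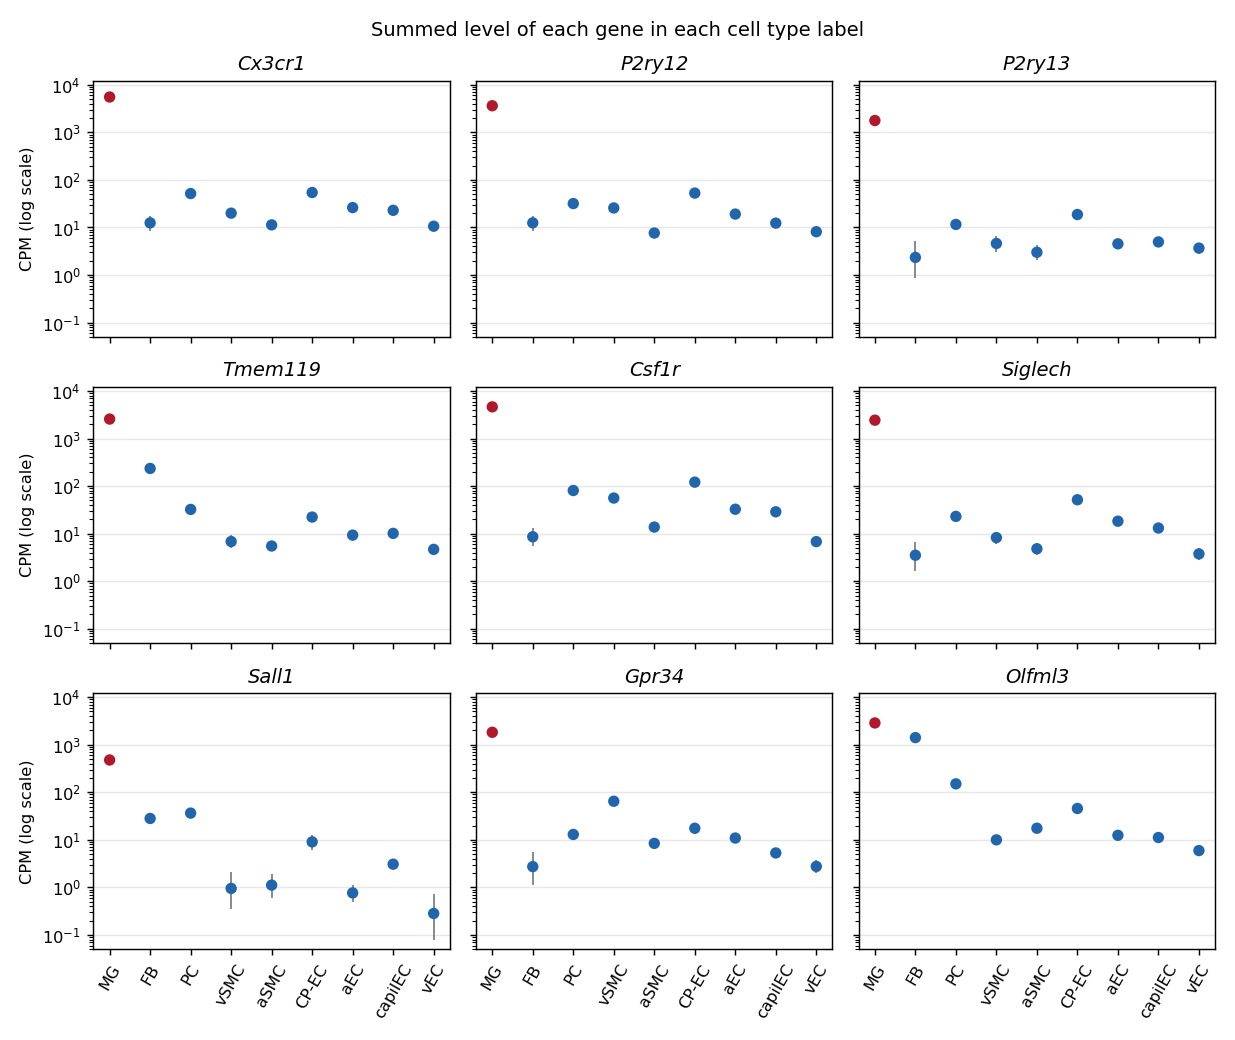
Summed level of each of the 9 genes in CPM (log scale) in the 9 cell type labels; red is MG, blue the other types, and bars are exact Poisson 95% intervals for counting error. MG is highest in all 9 panels, and FB comes closest for Olfml3, at 49.2% of the MG level.

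Among the receptors for protein ligands, Cx3cr1, the fractalkine receptor, had a median of 5423 CPM over the 137 MG cells, with a lowest cell at 0 and a highest at 17420 CPM. In the other types its summed level was 54.4 CPM in CP-EC, 51.7 in PC, 26.2 in aEC, 23.0 in capilEC, 20.02 in vSMC, 12.5 in FB, 11.4 in aSMC and 10.6 in vEC. The intervals of CP-EC (46.7 to 62.9) and PC (47.5 to 56.2) overlapped, and below them each type from capilEC down overlapped its next neighbour, while capilEC lay wholly above FB, aSMC and vEC. The intervals do not cover differences between cells or between plates. In every type but MG the median sum of the 9 genes per cell was lower on plate s483s than on s169s. In capilEC it was 12.9 against 110 CPM, in aEC 12.5 against 119 and in PC 11.6 against 237. Types differed in plate mix, with 10 of 17 CP-EC cells but 216 of 787 capilEC cells on s483s. For each of the 9 genes, the order of the types outside MG is thus not separate from plate. Csf1r, the receptor for the growth factors Csf1 and Il34, had a median of 4569 CPM in MG cells and a highest cell at 11289 CPM. It had a read in 136 of the 137 MG cells, the most of the 9 genes. Its summed level was 4639 CPM in MG, 121 in CP-EC, 80.8 in PC, 56.1 in vSMC, 32.6 in aEC, 28.8 in capilEC, 13.8 in aSMC, 8.60 in FB and 6.80 in vEC. The Csf1r interval of FB (5.39 to 13.03) overlapped those of aSMC and vEC, and the other neighbours were apart.

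The ligands of these receptors had their highest levels outside MG. Cx3cl1, which encodes fractalkine, was at 22.3 CPM in MG and highest in CP-EC, at 551 CPM, followed by aEC at 306 and capilEC at 238. Il34 was highest in PC at 397 CPM and Csf1 in vEC at 103 CPM, where MG had 19.96 CPM of Csf1. MG was close to aEC for Csf1 (20.09 CPM) and above CP-EC (0.906), aSMC (0.430) and vSMC (0.318). All 3 ligands were at least 4-fold lower in MG than in their highest type, as were 32.2% of the 15494 measured genes. The median log2 difference of the 3 ligands was -4.35, against -1.36 over all measured genes.

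P2ry12, P2ry13 and Gpr34 are G protein-coupled receptors, the first pair for ADP and the third for the lipid lysophosphatidylserine. P2ry12 had a median of 3668 CPM in MG cells (lowest 0, highest 9627), P2ry13 of 1649 (0 to 6233) and Gpr34 of 1692 (0 to 6532). The summed level of P2ry12 was 3630 CPM in MG, 52.9 in CP-EC, 31.9 in PC, 25.7 in vSMC, 19.1 in aEC, 12.5 in FB, 12.3 in capilEC, 8.15 in vEC and 7.65 in aSMC. Its intervals overlapped between PC and vSMC, between aEC and FB, between FB and capilEC, and between vEC and aSMC. For P2ry13 the order was MG at 1773 CPM, CP-EC 18.7, PC 11.6, capilEC 4.97, vSMC 4.61, aEC 4.54, vEC 3.68, aSMC 3.01 and FB 2.35. From capilEC down to FB each P2ry13 interval overlapped the next, while capilEC lay wholly above aSMC. Gpr34 stood at 1826 CPM in MG, 64.8 in vSMC, 17.5 in CP-EC, 12.99 in PC, 10.9 in aEC, 8.43 in aSMC, 5.30 in capilEC, 2.76 in vEC and 2.74 in FB. Each type from CP-EC down to aSMC overlapped its neighbour, as did vEC and FB. P2ry12 and P2ry13 lie within Med12l and Gpr34 within Cask, and strand use in the counting is not stated, so reads of shared bases (9 exon bases of P2ry12 with Med12l) cannot be told apart.

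The surface proteins differed in how far they were shared. Siglech, a sialic acid-binding lectin, was at 2434 CPM in MG, 51.7 in CP-EC, 23.1 in PC, 18.3 in aEC, 13.1 in capilEC, 8.26 in vSMC, 4.82 in aSMC, 3.75 in vEC and 3.52 in FB, where each of the last 4 overlapped its neighbour and vSMC lay wholly above vEC. Tmem119, a membrane protein used as a marker of resident microglia, was at 2569 CPM in MG and 235 in FB, then 32.3 in PC, 22.4 in CP-EC, 10.1 in capilEC, 9.33 in aEC, 6.83 in vSMC, 5.50 in aSMC and 4.68 in vEC. From capilEC down each Tmem119 interval overlapped the next, while capilEC lay wholly above vSMC, aSMC and vEC. FB held 9.15% of the MG level of Tmem119 and 0.145% of that of Siglech. The FB level of Tmem119 rested on few cells: 820, 382 and 96.0 CPM in 3 of the 9, 11.3 and 2.77 in the next 2, and no read in the other 4. Without the highest cell it was 112 CPM.

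Sall1, a zinc finger repressor that is restricted to microglia among macrophages, was at 478 CPM in MG and had the lowest MG level of the 9 genes per kilobase. Its median MG cell had 46.9 CPM and its highest 3108. Elsewhere it was at 36.5 CPM in PC, 28.2 in FB, 9.06 in CP-EC, 3.08 in capilEC, 1.12 in aSMC, 0.953 in vSMC, 0.767 in aEC and 0.283 in vEC, with overlap between PC and FB and between neighbours from aSMC down. The PC level came mostly from 1 cell at 1504 CPM, and without it PC stood at 8.10 CPM. In capilEC 1 cell likewise gave 60.4% of the Sall1 reads.

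Olfml3, a secreted glycoprotein, had the smallest difference between MG and the next type. Its summed level was 2872 CPM in MG, 1413 in FB, 150 in PC, 45.6 in CP-EC, 17.5 in aSMC, 12.5 in aEC, 11.2 in capilEC, 10.01 in vSMC and 5.95 in vEC, and only aEC, capilEC and vSMC overlapped with their neighbours. The aSMC level rested mostly on 1 of 41 cells, which gave 69.6% of the reads. That cell held 610 CPM, whereas the median aSMC cell held 3.33 CPM, so the place of aSMC above aEC is not secure. In FB it was present in every cell: 8 of the 9 held 457 to 6519 CPM and the lowest 22.7 CPM, and without the highest cell the level was 1154 CPM. In 7 FB cells Olfml3 had at least 20 reads and made up over 50% of the reads of the 9 genes. This was also so in 9 of the 54 PC cells, among them cells at 1512, 1224 and 1062 CPM, but in 0 of 137 MG cells and 0 of 787 capilEC cells. The only other such cell was 1 aSMC cell, so cells with Olfml3 and little of the other 8 genes were seen mostly in FB and PC.

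In CP-EC and vSMC, the highest levels of Csf1r, P2ry12, Cx3cr1, P2ry13, Siglech and Gpr34 outside MG rested mostly on single cells. Of the CP-EC cells, 1 of 17 carried all 9 genes, at 4815 CPM in sum, with Csf1r at 1630 CPM and P2ry12 at 591. Without it Csf1r in CP-EC was 8.44 CPM in place of 121, and P2ry12 12.7 in place of 52.9. For the other genes highest in CP-EC outside MG, a single cell gave 76.7% of the CP-EC reads of Cx3cr1, 83.9% of P2ry13 and 90.6% of Siglech. In vSMC, 1 of 29 cells held Gpr34 at 1542 CPM and Csf1r at 1339. Without it the type stood at 17.2 CPM for Gpr34 and 14.8 for Csf1r. Single cells also weighed in other types. In PC the cell with the most reads of a gene gave 25.3% (Olfml3) to 58.9% (P2ry12) of them, leaving out Sall1. In aEC such a cell gave 29.8% (Siglech) to 42.1% (Tmem119), and in aSMC 9.85% (Cx3cr1) to 69.6% (Olfml3). The place of these types in the order of a gene can thus depend on 1 cell. The 10 capilEC cells with the most, at 1026 to 5738 CPM in sum, gave 38.5% of all reads of the 9 genes in that type, and the other 777 cells stood at 70.0 CPM.

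Csf1r differed from the others in endothelial cells. In 10 capilEC and 4 aEC cells it had at least 20 reads and over 50% of the reads of the 9 genes, at 195 to 4032 CPM and 107 to 2163 CPM. Exons of Csf1r share 873 bases with Hmgxb3, which lies on the opposite strand. Hmgxb3 summed to 764 CPM in those 10 capilEC cells and to 6.00 CPM in the other 777, and reached 100 CPM in 8 of the 10 against 11 of the 777. In aEC it was at 416 CPM in the 4 cells and 8.52 CPM in the other 112. Without stated strand use, reads of the shared bases cannot be told apart, so the Csf1r level of these 14 cells is uncertain. In MG, where Csf1r was at 4639 CPM, Hmgxb3 was at 23.3 CPM in the 132 cells not led by Csf1r and at 0.672 CPM in the 5 that were.

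Low numbers of reads of the 9 genes were present in most cells of the other types. After each cell was thinned to 100000 reads, a read of Cx3cr1 was found in 97.1% of MG cells (92.7 to 99.2%) and in 61.4% of capilEC cells (57.9 to 64.8%), a type not known to use the gene. For P2ry12 the shares were 94.2% and 52.1%, and for Sall1 62.0% and 8.26%. A single read of Cx3cr1 or P2ry12 was thus seen in most cells of both types, whereas the levels were far apart. The summed level in capilEC was 0.280% (P2ry13) to 0.645% (Sall1) of the MG level. The makeup was close for some genes and not for others. Cx3cr1 gave 21.5% of the reads of the 9 genes in MG and 20.5% in capilEC, Tmem119 9.97% and 9.06%, and Olfml3 11.1% and 9.999%. Csf1r gave 18.0% in MG and 25.8% in capilEC and Sall1 1.86% and 2.75%, whereas P2ry12 gave 14.1% and 11.03%, P2ry13 6.88% and 4.44%, and Gpr34 7.09% and 4.73%. The capilEC shares of Csf1r and Sall1 depend in part on few cells. They include the 10 capilEC cells led by Csf1r, whose level is uncertain, and 1 cell with 60.4% of the Sall1 reads.

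Reads of the 9 genes in capilEC cells followed the position of MG cells on the plates. The cell names give a plate prefix and a well with 16 row letters and 24 column numbers, and MG cells in the same row or column of the same plate were counted for each capilEC cell, a comparison chosen after the levels had been seen. The 77 capilEC cells with no MG cell in their row or column had a median of 0 reads of the 9 genes, and 15.6% of them had any. With 1 or 2 such MG cells the median was 5 reads (263 cells), with 3 to 5 it was 16 (319 cells), and with 6 or more it was 30 (128 cells), where every cell had a read. Over all plates, total reads per cell did not rise in this order, with medians of 212920, 196377, 191379 and 181766.

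The same order held within each plate. On s483s, which had 10 MG cells, the medians were 0, 5 and 15 reads in 70, 131 and 15 capilEC cells with 0, with 1 or 2 and with 3 to 5 MG cells in line, that is, in the same row or column. On s169s, with 44 MG cells, they were 8, 17 and 31 reads for 1 or 2, for 3 to 5 and for 6 or more. On s480s they were 11, 17.5 and 30, and on s482s 1, 5, 14.5 and 23.5 from no MG cell upwards. Depth differed between these groups too. Median total reads per cell rose on s482s, from 182718 to 234276, and were 222952, 221322 and 311754 on s483s. On s169s they fell from 160135 to 146660, and on s480s they were 213518, 235810 and 220117. Over capilEC cells, Spearman's rho between their reads of the 9 genes and the summed reads of the 9 genes in MG cells of the same row and column was 0.81 (787 cells), and 0.85, 0.73, 0.68 and 0.89 on s169s, s480s, s482s and s483s. Cells of a plate share rows and columns, so these values are descriptions.

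Gene by gene, the cells with no MG cell in line had almost none of the 9 genes. Their summed level of Cx3cr1 was 0.289 CPM (upper limit 0.674) against 30.5 CPM in cells with 6 or more MG cells in line. For P2ry12 the values were 0.0578 and 27.4 CPM, for Csf1r 0.116 and 30.1 CPM, and for Tmem119 0.116 and 11.3 CPM. Gpr34 had 0 reads in the 77 cells, with an upper limit of 0.213 CPM, against 9.60 CPM. The highest of the 77 cells had 4 reads of the 9 genes in all. Plate and position are largely shared here, since 70 of the 77 cells but 0 of the 128 with 6 or more are from s483s. The values within s483s above are the direct comparison, but they are for the sum of the 9 genes. The values gene by gene are thus not separate from plate. Why the reads follow the wells was not tested.

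**Figure D2:**
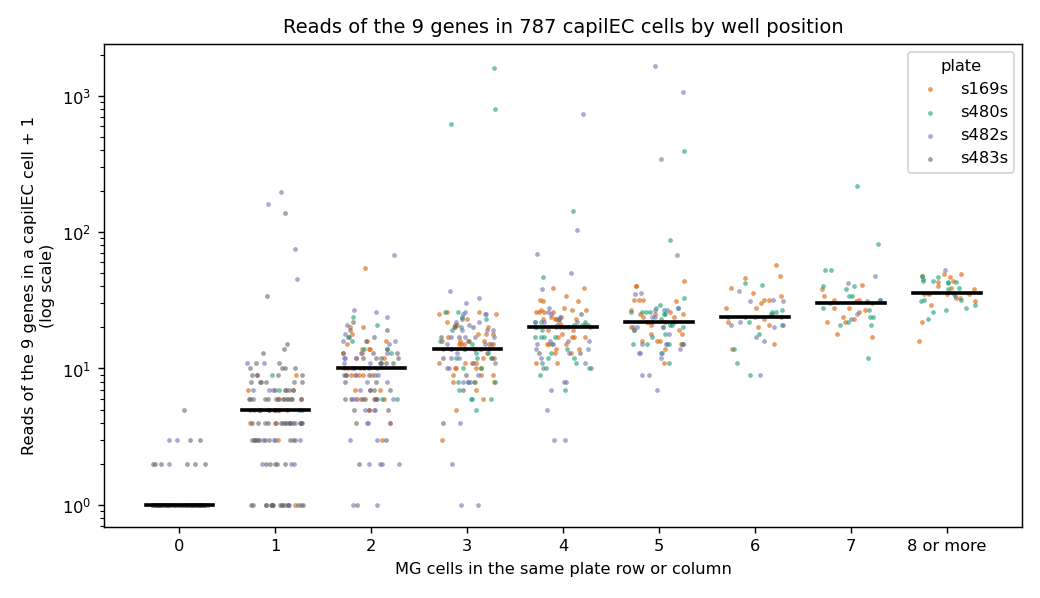
Reads of the 9 genes, plus 1, in each of 787 capilEC cells (log scale) by the number of MG cells in the same row or column of the same plate; colours are the 4 plates and bars the medians over all plates. The median climbs from 0 reads with no MG cell in line to 30 reads with 6 or more, and a few cells with over 100 reads lie apart at 1 to 7.

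Within MG, 78 of 137 cells (56.9%) had a read of all 9 genes after thinning, 39 had 8 and 11 had 7. The missing gene was most often Sall1, which had no read in 38.0% of MG cells (29.8 to 46.6%). Tmem119 had none in 10.2% (5.70 to 16.5%), and Csf1r in 0.730% (0.0185 to 4.00%). The coefficient of variation over cells ran from 54.7% (Csf1r) and 54.8% (P2ry12) to 78.5% (Tmem119) and 147% (Sall1), where counting alone would give 4.25% (Cx3cr1) to 14.9% (Sall1). The spread between MG cells is thus wider than counting of reads for each gene. The counting value takes each read as separate, though reads copied by PCR can stem from 1 molecule. These values pool the 4 plates and so include differences between plates. The median of Tmem119 was 302 CPM on s169s against 3057 to 3384 on the other plates, and 9 of its 14 MG cells without a read were from s169s. Beside genes of like mean, Cx3cr1 had 64.5% against a median of 39.5% over 6 genes, Tmem119 78.5% against 60.9% over 19, Sall1 147% against 133% over 178, and Siglech 60.9% against 62.6% over 18. Tmem119 had quartiles of 498 and 3767 CPM, 7.57-fold apart, against 1.82-fold for P2ry12.

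The MG cells of plate s169s stood apart from the rest. Among the 44 MG cells of s169s, Tmem119 stood at 994 CPM, against 3134, 3024 and 3041 on s480s, s482s and s483s with 49, 34 and 10 MG cells. Cx3cr1 was at 2957 CPM against 6763, 5988 and 5932, Csf1r at 2862 against 5553, 5007 and 4388, and Sall1 at 311 against 502, 600.5 and 443. These 4 genes were lower on s169s than on any other plate. Another 4 were higher on s169s than on any other plate: Olfml3 at 3868 CPM against 2444 to 2612, P2ry12 at 4696 against 3059 to 3481, Gpr34 at 2192 against 1514 to 1882, and P2ry13 at 2116 against 1603 to 1687. Siglech lay inside the range, at 2454 against 2065 to 2486. How many of all genes lay at either end on s169s was not counted, so these counts of genes have no background. The other 3 plates differed among themselves by 1.04-fold (Tmem119) to 1.35-fold (Sall1).

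Cx3cr1 and Tmem119, 2.11-fold and 3.09-fold lower on s169s than the mean of the other plates, were the 2 of 9 genes past 2-fold in that direction, which 24.5% of 4141 genes with at least 50 CPM passed. None of the 9 was 2-fold higher there, against 8.96% of these genes. The share of the 9 genes was near the background for lower genes. Plates are not stated to be separate animals or runs. MG cells of s169s also had fewer reads, with a median of 167261 against 246568 to 259306, and 2676 genes per thinned cell against 2569 to 2960.

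The plate difference moved with base composition. The transcripts of the 9 genes ran from 37.1% GC (Gpr34) and 38.6% (P2ry12) to 54.5% (Csf1r) and 59.1% (Tmem119). Over the 9, Spearman's rho between GC and the s169s difference was -0.57, and Olfml3, at 52.4% GC and 0.62 higher on the log2 scale, went against it. Over 3911 genes (94.4% of the 4141) rho was -0.23 in MG and -0.29 in capilEC. From the fifth of genes with the lowest GC to the fifth with the highest, the median log2 difference fell from 0.19 to -0.56 in MG and from 0.30 to -0.27 in capilEC. In MG, rho with transcript length was -0.27. The part of base composition, length or depth in the levels of the 9 genes was not tested.

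**Figure D3:**
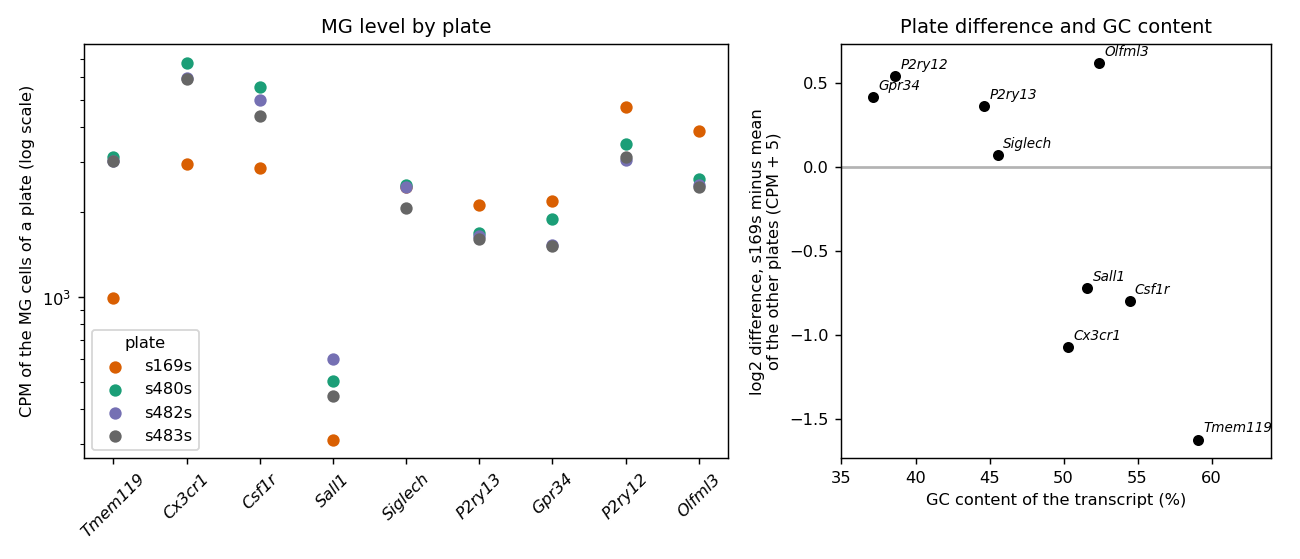
Left, summed CPM (log scale) of each gene in the MG cells of each of 4 plates, with genes ordered by the difference of s169s. Right, that difference on the log2(CPM + 5) scale against the GC content of the gene's longest coding transcript in percent; Tmem119, at 59.1% GC, lies lowest at -1.62 and Olfml3 highest at 0.62.

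**Figure D4:**
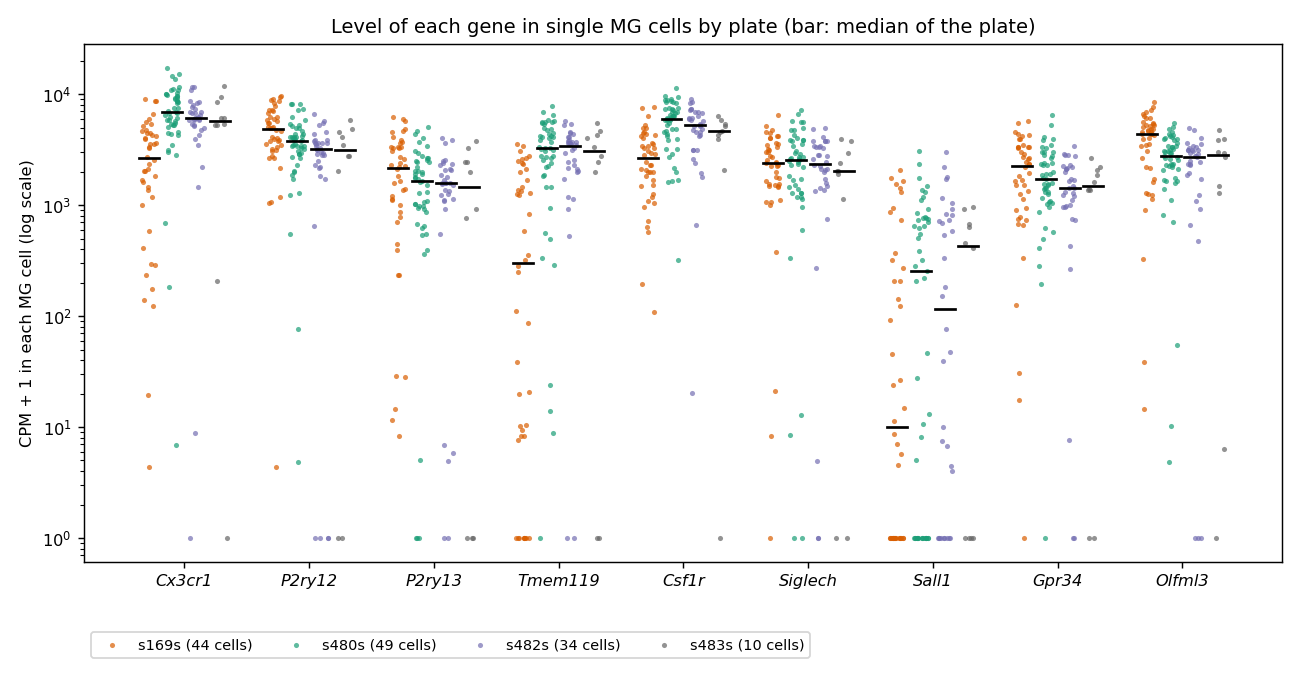
CPM plus 1 of each gene in each of 137 MG cells (log scale), by plate, with a bar at the median of the plate. The s169s median of Tmem119 is 302 CPM against 3057 to 3384 on the other plates, and cells without a read lie at 1.

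How the 9 genes varied together across MG cells also depended on the plate. Over all 137 cells the closest pair was Cx3cr1 and Tmem119, with Spearman's rho of 0.67, followed by Tmem119 and Csf1r at 0.59 and Cx3cr1 and Csf1r at 0.59. Within s169s these 3 values were 0.14, 0.24 and 0.14, and on s480s 0.58, 0.43 and 0.51. P2ry12 and Cx3cr1 went the other way, at 0.17 over all cells and 0.55 over the 93 cells of the other plates. P2ry12 and P2ry13, whose genes are neighbours on chromosome 3, were at 0.54 over all cells and at 0.57, 0.52, 0.45 and 0.51 within the plates. P2ry12 and Gpr34 were at 0.51, with 0.30 to 0.61 within plates. The median over the 36 pairs was 0.21 in all cells, 0.33 without s169s, and 0.17, 0.29, 0.39 and 0.48 on s169s, s480s, s482s and s483s. Cells of a plate share depth and handling, and no p is given.

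**Figure D5:**
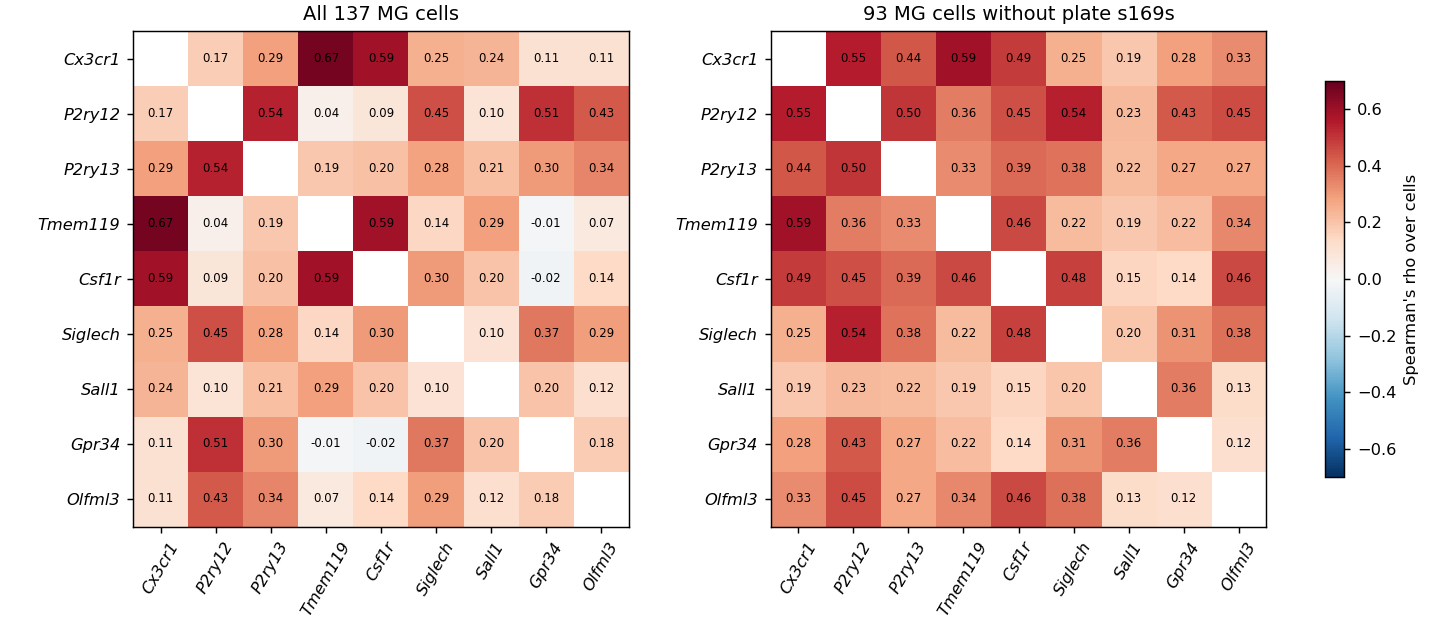
Spearman's rho between each pair of the 9 genes over MG cells thinned to the same number of reads, left over all 137 cells and right over the 93 cells without plate s169s. Cx3cr1, Tmem119 and Csf1r stand out on the left, whereas on the right rho is above 0.3 in 21 of the 36 pairs.

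A few MG cells had little of the 9 genes. The median cell held 26673 CPM of them in sum, and 6 cells held 147 to 2080 CPM. Of these, 1 had 26158 CPM of the endothelial markers and 1018 CPM of the microglia markers, and 1 had 3072 CPM of the endothelial markers and 8430 of the microglia markers. The other 4 had 461 to 5333 CPM of the monocyte and neutrophil markers, of which 115 of the 137 MG cells had no read, and 7708 to 13248 CPM of the microglia markers. The MG cell with the most of the border macrophage markers, at 14725 CPM with Mrc1, the mannose receptor, at 4299 CPM, separated the 9 genes from each other. It had Csf1r at 4410 CPM and P2ry13 at 859 CPM, Cx3cr1 at 695 and Olfml3 at 819, but P2ry12 at 75.9 CPM, Siglech at 11.98, and no read of Tmem119 or Sall1. In all, 3 MG cells had reads of at least 3 of the 10 border macrophage markers, with 7067 to 21520.4 CPM of the 9 genes.

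Because dissociation is known to induce immediate early genes in microglia, a list of 19 such genes was set beside the 9. The list summed to 30181 CPM in MG, 19286 in aSMC and 3631 in capilEC, and 2 of its 19 genes, Jun and Nfkbiz, met the size rule for MG, which 1.08% of all measured genes met. Across the 137 MG cells its rho with the sum of the 9 genes was -0.16, but -0.46 on s169s and -0.10, -0.05 and -0.02 on the other plates. On s169s it was -0.54 for P2ry12 and -0.48 for P2ry13 and 0.06 for Cx3cr1. A list of 10 cytokine genes, of which Il1a, Tnf, Ccl3, Ccl4 and Cd83 met the size rule (against 1.08% of all measured genes), had rho of -0.39 with the sum, with -0.55 on s169s, -0.38 on s480s, -0.08 on s482s and 0.01 on s483s. The plates thus gave values from -0.55 to 0.01 for the same pair of measures.

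The wider homeostatic programme followed the 9 genes for the most part. Of 19 other homeostatic genes, 14 met the size rule in MG (median log2 difference 4.84), against 1.08% of the 15494 measured genes here and for the lists below, such as Fcrls at 2695 CPM against 83.3 in vSMC, and Selplg, a selectin ligand, at 3484 against 96.1 in PC. Sparc, Cst3, Adgrg1, Entpd1 and Bin1 did not, and Sparc was at 3157 CPM in MG and 3514 in PC. Of 14 transcription factors, 4 met it, among them Spi1, which encodes PU.1, at 851 CPM against 11.2, Irf8 at 658 against 22.8, and Irf5. Mef2c was at 478 CPM in MG and 555 in vSMC, and Runx1 at 107 CPM with a read in 30.7% of MG cells. Of 12 signalling partners, Tyrobp, the adaptor protein of many microglial receptors, Tgfbr1, a TGF-beta receptor, and Hcls1 met it, whereas Tgfbr2 was at 825 CPM in MG and 828 in aEC. Among 13 measured genes of disease-associated microglia 1 met it, Ctsd, and Apoe was at 718 CPM in MG and 3440 in FB.

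Other genes had profiles like the 9. Over the 9 types, the genes closest to their mean profile included Ncf1 (Pearson's r of 0.99), Grn, Fgd2, Hpgds, Il10ra, Lpcat2 and Csf3r, the last at 0.98. Across the 137 MG cells, Cd164 was the closest of the genes named here to the sum of the 9, with rho of 0.55 and 0.50, 0.54 and 0.29 on s169s, s480s and s482s. Laptm5, Entpd1, Sirpa, Selplg, Ctsd, Tmem173 and Sparc followed at 0.47 to 0.42. The lowest of the genes named were Eef1a1 at -0.42, Gpi1, Atox1, Nfkbia, H3f3a, Ppia, Fxyd5 and Cd83 at -0.37. Over the 1643 genes that could be named the median rho was -0.06.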

How the data were processed

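The authors deposited raw read counts per gene and cell in 1 table, with a type label for each cell; per the labels' protocols the method was Smart-seq2. The submitters' processing notes name featureCounts, Subread 1.4.6-p5 and SAMtools 1.16.1 as tools, and both GRCm38 and GRCm39 as builds with no role stated. All 1235 cells (100021 to 854836 reads, median 202225) were kept, 0 columns were unused, and no doublet caller was run. Plate and well were read from the cell's name.

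Counts were summed per type and scaled to 1000000 reads (CPM), with exact Poisson intervals. Shares of cells have exact binomial (Clopper-Pearson) intervals on cells thinned to 100000 reads. The size rule asked for at least 50 CPM in MG, a read in at least 50% of MG cells (all reads), and a 4-fold difference on log2(CPM + 5). It was also run on simulated data in which every type but MG had the capilEC profile. The simulation held no differences between those types, and none between plates apart from depth. It therefore does not show how the rule behaves with such differences. Transcript lengths, GC content and overlaps came from the GENCODE annotation of GRCm38 and promoters from RefSeq (GRCm38.p6). The genes named are the 9, members of fixed lists, and the 8 nearest by each measure, leaving out ribosomal, mitochondrial and predicted genes; Hmgxb3 was named after its values were seen. A few listed or nearest genes enter the counts but are not reported here. The members and lists were chosen with earlier results of these data known. Python 3.11.15, numpy 2.4.6, pandas 2.3.3, scipy 1.17.1, R 4.3.3, edgeR 4.0.16 and DESeq2 1.42.0 (the last pair for scaling factors) were used.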

Additional observations from a re-analysis of the deposited data

How the results depend on the processing

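The count of 8 genes at least 4-fold above every other type held under 15 of 16 alternatives, which changed the scaling (TMM or DESeq2 factors, equal weight per cell), the pseudocount, the minimums, or the cells or plates kept. It was 9 without the 715 other cells with reads of at least 3 of the genes, where the log2 difference of Olfml3 was 2.04; that setting removes cells for carrying these genes and leaves 2 of the 9 FB cells, so it says nothing of stability. For single genes, 125 of 126 alternatives stayed on the same side of the rule, with the lowest values nearest the threshold of 2 at 2.29 for Tmem119 (without those 715 cells) and 2.81 for Sall1 (without plate s482s). Over all genes the rule was met by 167, and by 361 with no minimum share of MG cells. The median of 9 genes per MG cell became 8 where 5 reads were asked for. The rho of the 9 genes with the immediate early list was -0.16, and -0.46 within plate s169s; the cause was not tested. Leaving out MG cells with endothelial markers, and leaving out s169s from that rho (-0.06), were chosen after seeing the data. No paired analysis was possible because each type was 1 sample and no result came from a test. A single read per cell is the limit of detection, so an absent Sall1 read in a cell does not show absence.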
